A study of Mus musculus with 80 samples.

Results

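RXR ChIP-Seq sites that lay in 5′ UTRs of protein-coding genes, or just upstream of such genes, were described in 40 mouse livers. Peaks of all livers that overlapped by at least 1 bp were merged into 215015 sites, and 36132 of these had a peak in at least 3 of the 40 ChIP libraries. The 1106 sites described here were chosen by measured values, namely the number of libraries with a peak and the summit position of the peak with the highest -log10 p. In 1009 of them that summit fell in a 5′ UTR (852 genes). In the other 97 (86 genes) it lay within 5 kb upstream of a gene and outside every gene body and annotated exon. A site is named by that gene, and positions are on mm10 (GRCm38). The larger classes among the 36132 sites were coding exons (19709), 3′ UTRs (7806), other annotated exons (3162), introns (3139) and other intergenic sequence (1210).

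The livers came from male mice that were 5 months old and had received their diets for 12 weeks. WT mice (C57BL6/J) and KO mice, in which an albumin-driven Cre deleted loxP-flanked PPARγ in hepatocytes, each received 1 of 4 diets, with 5 livers in each of the 8 groups. The diets were a control diet (Control), the same with pioglitazone added (Pio), a high-fat diet (HFD) and the latter with pioglitazone (HFD-Pio). Other liver cells of KO mice may keep the gene, and deletion by cell type was not measured here. The WT mice are described as C57BL6/J mice from The Jackson Laboratory rather than as littermates, so that their origin cannot be told apart from genotype. The antibody label names none for the 15 ChIP samples of the KO Pio, KO HFD and KO HFD-Pio livers although their titles name RXR, so every value of these 3 groups rests on the titles.

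RXR is the shared partner of many nuclear receptors, among them PPARγ, PPARα, LXR, FXR and the thyroid hormone and retinoic acid receptors. With PPARγ it binds a direct repeat of the half-site AGGTCA with a spacer of 1 base, called a DR1, and pioglitazone is a ligand that activates PPARγ. A promoter surrounds the transcription start, and the 5′ UTR is the transcribed part between that start and the first codon, so a summit in a 5′ UTR is close to the promoter only where that UTR lies in the first exon.

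The libraries differed in ways that touch every result below. WT ChIP libraries kept 2.04 to 4.26 Mtags (megatags) and had peaks called at a p cutoff of 0.001. KO libraries kept 0.628 to 1.06 Mtags and had a q cutoff of 0.05. Peak numbers were 610 to 33911 in WT and 7648 to 30444 in KO livers. In 6 of the 10 Pio-treated WT libraries (WT Pio 2, 3 and 5 and HFD-Pio 1, 4 and 5) the fragment length estimated by MACS2 was 45 to 48 bp, against 169 to 263 bp in the other 4 and 183 to 292 bp in untreated WT livers. Genotype cannot be told apart from depth and cutoff, and in whole liver a signal in fewer cells cannot be told apart from less signal per cell. The labels name separate samples, so that p-values measure the spread between these samples. Among all 36132 sites, 39 of 45 genes of a neural list had a site, and 115 to 215 of the 296 sites of that list were called per KO liver against 0 to 9 per WT liver. Of lists that mark hepatocytes, 3 of 39 genes for secreted liver proteins and 7 of 33 for enzymes and transporters had one. Of all 21911 protein-coding genes 35.8% had one. Other lists were as high as the neural one, with 54 of 54 genes for splicing factors and hnRNPs and 79 of 85 for ribosomal proteins. Of all 36132 sites, 5574 to 17893 were called per KO liver and 81 to 7345 per WT liver. Whether samples or libraries were mixed up before deposition was not tested, and the genotype and treatment of every value are those of the labels.

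Some upstream sites shared their sequence with protein-coding transcripts of other genes. The strongest peak of each of the 97 upstream sites was aligned to the GENCODE M21 protein-coding transcripts. In 24 of 97 sites (24.7%) at least 50% of the peak aligned at an identity of at least 85%. The same was found for 14.7% of intron sites, 22.3% of other intergenic sites and 1.49% of the 15015 windows of 201 bp centred 2500 bp upstream of protein-coding genes. The 24 matched peaks were 46 to 456 bp long, and most were no longer than the 99 bp at Tmprss5. For most of them 50% of the peak was thus far fewer bases than 50% of a window, so the windows are not a comparison of like length. In 23 of the 24 the alignment ran over the whole peak, and in 9 of these the identity was 100%. The transcript was that of a ribosomal protein gene in 10 of the 24. At all 24 sites the matched gene had a site of its own among the 36132, as did 35.8% of the 21911 protein-coding genes. The 24 are counted by site, and Rps3a1 and Dazap2 were each matched at separate sites. A processed pseudogene is a genomic copy of a spliced transcript, and RefSeq annotates a pseudogene at 12 of the 97 upstream sites. Whether the alignments cross exon junctions was not tested. Windows of 30 bases near the summit show how close the matches were. They are given 5′ to 3′ on the plus strand of mm10 with the transcript in the same orientation, and capitals mark bases that differ between both lines of a pair. The first pair is the upstream site of Tmprss5 (a membrane serine protease) at chr9:49079072-49079101 and the transcript of Rps14 (small ribosomal subunit). The second is that of Farsa (phenylalanine-tRNA ligase) at chr8:84855607-84855636 and Rpl9 (large subunit). The third is that of Rasl2-9 at chr7:5126741-5126770 and Actg1 (cytoplasmic actin). The fourth is that of Yipf4 at chr17:74487790-74487819 and Rps6 (small subunit). The last is that of Dynlrb2 (a dynein light chain) at chr8:116502341-116502370 and Rps3a1 (small subunit).
Tmprss5 site: gatgtgcagggcGgtgatgcccaGctcctt
Rps14 transcript: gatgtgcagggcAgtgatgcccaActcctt
Farsa site: TtctggaatgtcGacagtctgattgctgag
Rpl9 transcript: CtctggaatgtcCacagtctgattgctgag
Rasl2-9 site: ctggggcctaatgttctcaCtgaacagtag
Actg1 transcript: ctggggcctaatgttctcaTtgaacagtag
Yipf4 site: agcacccaagattcagcgTcttgttactcc
Rps6 transcript: agcacccaagattcagcgActtgttactcc
Dynlrb2 site: ttatcctctTcatgaTgtctttgttagaaa
Rps3a1 transcript: ttatcctctCcatgaCgtctttgttagaaa

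Most 5′ UTR sites lay inside exons, and few reached upstream of the gene start. The summit was a median of 344 bp (interquartile range 134 to 3949) from the start of the transcript whose 5′ UTR held it, and 171 were over 10 kb away along the genome. Measured from the start of the gene, 359 (35.6%) lay within 500 bp. In 346 (34.3%) the summit was also coding sequence of another transcript, of the same or another gene. The strongest peak lay wholly in protein-coding exons in 553 sites, covered at least 1 intron base in 444 and had at least 1 base outside every protein-coding gene in 17. In 30 the peak reached upstream of the gene start. In 51 sites the summit was nearer to the gene start than 50% of the peak's length, so that a peak even on both sides of its summit would cross the start. Of these, 27 crossed it, 10 of them by over 50 bp, and the median upstream edge was -3 bp (interquartile range -35 to 28, negative values being upstream).

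**Figure D1:**
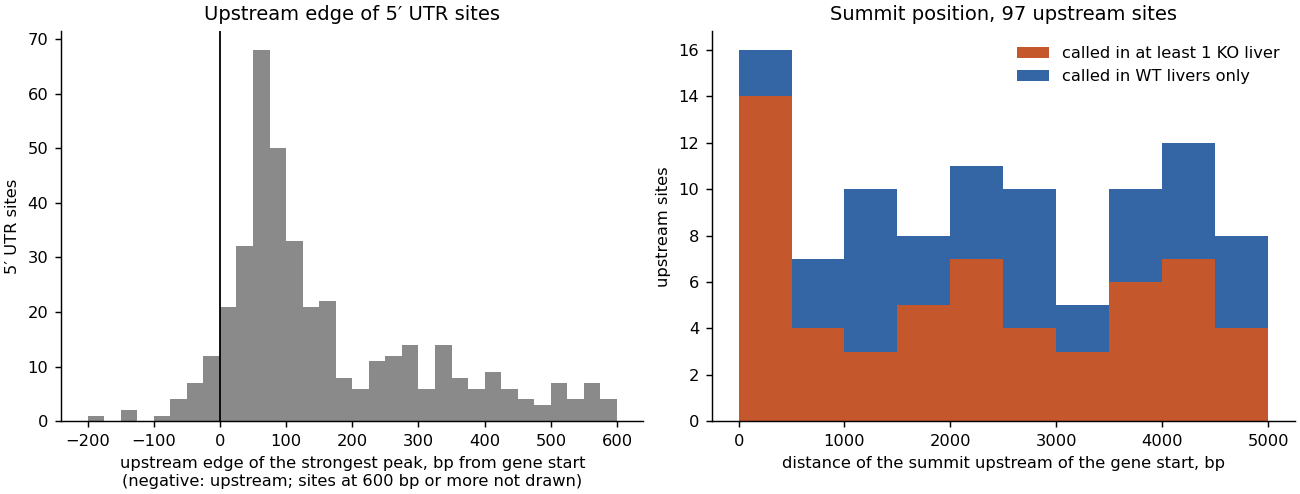
The left panel counts 5′ UTR sites by the distance (bp) from the gene start to the upstream edge of the strongest peak, and 603 sites with an edge at 600 bp or more are not drawn. The right panel counts the 97 upstream sites by the distance (bp) of the summit from the gene start, with sites called in at least 1 KO liver in orange and in WT livers only in blue. Most drawn edges lie downstream of the start, and 18 of the 23 upstream sites within 1 kb were called in KO livers.

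The 97 upstream sites were spread over the whole 5 kb. Their summits lay a median of 2253 bp from the start (interquartile range 1024 to 3794, range 79 to 4964), with 23 within 1 kb, 39 at 1 to 3 kb and 35 at 3 to 5 kb. Within 1 kb, 18 of 23 were called in at least 1 KO liver, and beyond 1 kb 39 of 74 were. More than 50% of the bases around the summit were masked as repeats in 26 of 97 sites (26.8%), against 1.19% of 5′ UTR sites. The share was 39.3% at other intergenic sites and 31.8% in the windows centred 2500 bp upstream of genes, so upstream sites were not above these. The genome annotation of RefSeq places an exon or pseudogene at 28 of the 97 (28.9%) that GENCODE M21 leaves bare, and at 29.2% of other intergenic sites.

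Sites on both sides of the limits of the rule had close values. The 237 sites called in exactly 3 libraries had a median of their mean fold enrichment of 4.05, and 498 sites of the same position called in 2 libraries, which were not included, had 3.78. The 8 upstream sites at 4500 to 5000 bp had a median of 4.06, and 11 intergenic sites at 5000 to 5500 bp, not included, had 4.09. Fold enrichment here is the authors' ratio of ChIP pileup to local background from input at the summit, and it exists only where a peak was called.

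Direct repeats of the half-site were rare around these summits. Both strands of the 201 bp around each summit were searched for 2 copies of AGGTCA in the same direction with a spacer of 0 to 5 bases and at most 1 mismatch over both copies. No member held one with a spacer of 1 (0 of 1106), against 0.277% of the other 35026 sites and 0.287% of windows at all protein-coding gene starts. With any spacer, 12 members (1.085%) held one, against 1.21% and 0.889%. The single half-site AGGTCA was in 8.86% of members, 12.9% of other sites and 9.24% of gene starts. These shares were below or close to those at gene starts, and they describe only the letters in these windows. Of the 12, 1 was perfect, with no spacer, in the 5′ UTR of Rsrc2 (an RS-domain protein) at chr5:123744968-123744997. The 4 sites whose repeat had no spacer are printed because they were closest to a plain tandem pair, on the minus strand, with the repeat in capitals. The other 3 lie upstream of Vstm4 at chr14:32854183-32854212 and in 5′ UTRs of Gp1bb (a platelet glycoprotein) at chr16:18621960-18621989 and Snrpn (a spliceosome protein) at chr7:59999343-59999372.
Rsrc2: tcaaggtcgAGGTCAAGGTCAagagaaaga
Vstm4: gagtagattAGTTCAAGGTCAgccttaaca
Gp1bb: tccacccatAGGTCAAGGTCTtttcttccc
Snrpn: ccgaggtcgAGGTCCAGGTCAaacgtcgaa

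The GC content of 5′ UTR sites lay between that of other sites and that of gene starts. Its median was 56.2%, against 49.8% at other sites and 58.7% at gene starts. The Sp1 box GGGCGG was in 22.9% of 5′ UTR sites, 5.28% of other sites and 40.02% of gene starts. CCAAT was in 19.03%, 24.2% and 28.2%, and the TATA box core TATAAA in 3.77%, 8.78% and 8.08%. Upstream sites had a median GC content of 48.8% and held GGGCGG in 8.25%. All were searched on both strands.

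KO livers had more of these sites than WT livers, and untreated WT livers had almost none. The 5 WT Control livers had 0, 18, 1, 10 and 0 of the 1106 sites, and the WT HFD livers had 2, 4, 7, 1 and 5. The WT Pio livers had 82, 107, 178, 17 and 104, and the WT HFD-Pio livers 139, 6, 22, 115 and 44. Most Pio-treated livers were above all untreated WT livers, but WT Pio replicate 4 and WT HFD-Pio replicate 2 were within the untreated range. KO Control livers had 244, 390, 463, 190 and 399, KO Pio 431, 486, 439, 598 and 479, KO HFD 450, 453, 548, 375 and 183, and KO HFD-Pio 323, 362, 512, 416 and 363. Every KO liver was thus above every WT liver. These counts moved with the total, since 5574 to 17893 of the 36132 sites were called per KO liver and 81 to 497 per untreated WT liver. Members were 2.64% to 3.52% of the sites called in KO livers and 0% to 3.78% in WT livers, with overlap between the genotypes. Means ± SD (n = 5) ran from 3.8 ± 2.39 for WT HFD and 5.8 ± 8.01 for WT Control to 486.6 ± 66.8 in KO Pio. In the 6 WT libraries with short fragments 44 to 178 sites were called, and in the other 4 Pio-treated WT libraries 6 to 82.

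**Figure D2:**
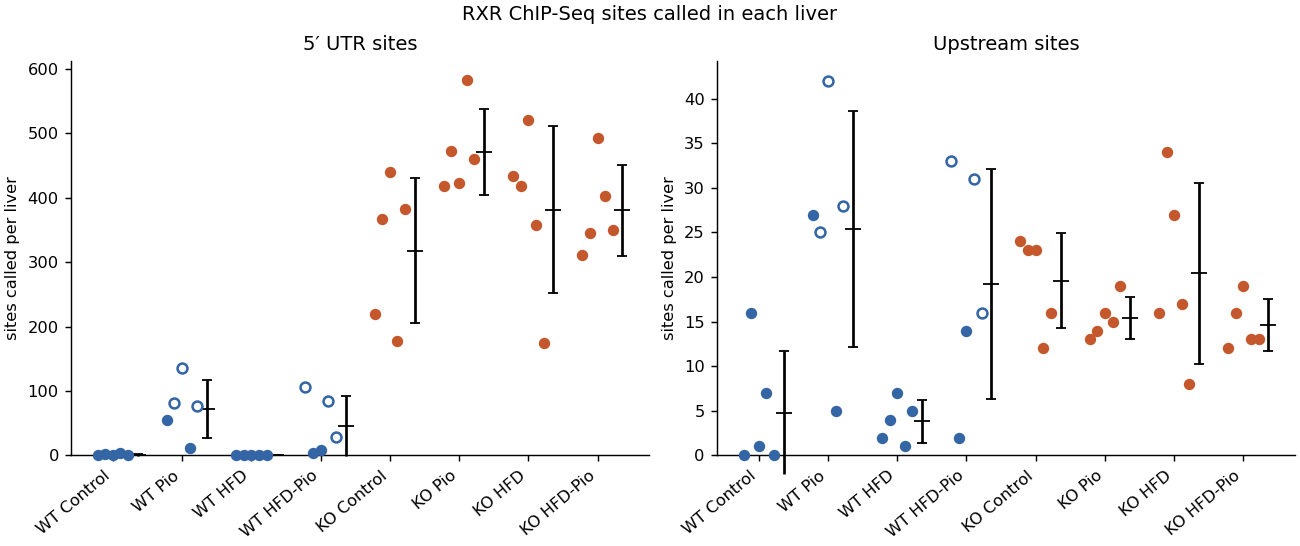
Number of 5′ UTR sites (left) and upstream sites (right) called in each liver, by group. Points are livers (WT blue, KO orange), open points are libraries with a fragment estimate under 60 bp, and black bars are the mean ± SD of 5 livers. KO livers had 175 to 583 5′ UTR sites and WT livers 0 to 136, whereas the upstream sites of KO and Pio-treated WT livers overlapped.

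Both kinds of site differed in where they were called. Of the 5′ UTR sites, 836 had no peak in any WT liver, 35 had none in any KO liver and 138 were called in both genotypes. Of the upstream sites, 34 of 97 had none in WT, 40 had none in KO and 23 were called in both. In all 20 KO livers 55 sites were called (53 in 5′ UTRs), and no site was called in all 20 WT livers. At least 1 untreated WT liver had a peak at 5 of the 5′ UTR sites and 17 of the upstream sites.

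The 8 most frequent 5′ UTR sites were those of Fth1 (2 sites), Gm20721, Calm2, Eif1, Tecr, Rplp1 and BC005537, and all 8 were called in 19 or 20 KO livers and in 0 untreated WT livers. Fth1 encodes the heavy chain of ferritin, the iron store of the cell. Its site at chr19:9984115-9984415 was also coding sequence in another transcript. Fold enrichment there was 7.90, 9.55, 14.6, 3.11 and 18.3 in the WT Pio livers and 11.6, 5.48, 7.62, 20.2 and 8.44 in WT HFD-Pio. It was 14.7, 25.2, 24.5, 19.1 and 25.6 in KO Control, 20.2, 20.2, 21.3, 22.3 and 19.8 in KO Pio, 25.3, 22.6, 19.2, 20.05 and 18.4 in KO HFD and 14.2, 14.5, 20.9, 19.4 and 17.1 in KO HFD-Pio. The KO groups overlapped each other, and 7 of the 10 Pio-treated WT livers were below the lowest KO liver. Values of both genotypes come from libraries of unequal depth and cutoff.

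Eif1, which encodes a factor that selects the start codon in translation, had its site 223 bp from the start at chr11:100320008-100320149. Fold enrichment was 6.57, 8.95, 16.6, 2.65 and 18.9 in WT Pio and 17.5, 4.24, 22.4 and 6.16 in 4 of 5 WT HFD-Pio livers. In the 19 KO livers with a peak it was 6.09 to 12.4, inside the range of the Pio-treated WT livers. Tecr, an enzyme of very long-chain fatty acid synthesis, had values of 6.13, 7.48, 10.02, 3.31 and 8.45 in WT Pio, 7.50, 3.33 and 5.71 in 3 WT HFD-Pio livers, and 5.26 to 10.9 in the 20 KO livers. Rplp1, a ribosomal stalk protein, had 6.72, 9.31, 10.4 and 7.28 in WT Pio, 16.7, 18.8 and 8.19 in WT HFD-Pio, and 6.95 to 18.9 in the KO livers. At these 3 sites the values of the genotypes overlapped.

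**Figure D3:**
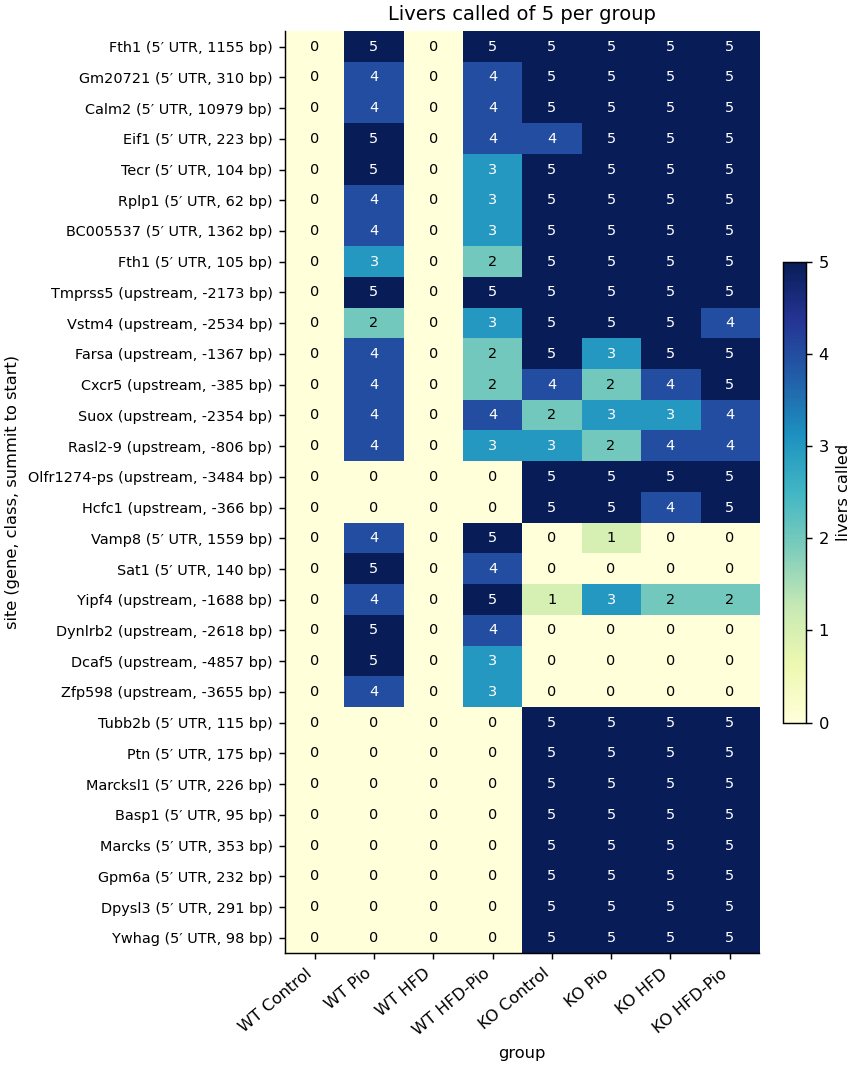
Number of livers with a peak, of 5 in each group (colour and digits), for the sites called most often in each class and for the sites with the smallest p in the comparisons. The distance is that of the summit from the transcript start, negative upstream. Every site with calls in WT livers shown here was called in Pio-treated livers and in 0 of 10 untreated ones.

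The upstream sites called in the most libraries were those of Tmprss5, Vstm4, Farsa, Cxcr5, Suox, Rasl2-9, Olfr1274-ps and Hcfc1. Of these, Tmprss5, Farsa, Cxcr5 (a chemokine receptor, matched to Rpl23), Suox (sulfite oxidase, matched to Rpl12) and Rasl2-9 carried a transcript match. The Tmprss5 site at chr9:49079039-49079137, 2173 bp upstream, had a fold enrichment of 8.22, 18.7, 26.6, 2.47 and 12.1 in WT Pio and 21.1, 5.71, 2.80, 35.8 and 8.18 in WT HFD-Pio. It was called in 0 of 10 untreated WT livers and in 20 of 20 KO livers, at 3.66 to 13.5. The WT values spread around the KO values on both sides. The Rasl2-9 site had 11.5, 10.7, 15.5 and 9.38 in WT Pio, 11.8, 8.22 and 7.24 in WT HFD-Pio, and 3.64 to 6.67 in 13 KO livers, with no overlap between the genotypes.

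The 34 upstream sites called in 0 WT livers all lacked a transcript match. The unmatched sites called in the most libraries were those of Hcfc1, Olfr1274-ps and Vstm4. The site of Hcfc1, a cofactor of transcription, lay 366 bp upstream at chrX:73966614-73966840. It was called in 19 KO livers and 0 WT livers, at 4.33, 3.77, 4.59, 4.58 and 4.72 in KO Control and 3.60 to 7.57 in the treated KO livers. The site of Olfr1274-ps at chr2:90395038-90395289 was called in all 20 KO livers, at 3.36 to 6.97, and 61.7% of the bases around its summit were masked as repeats. The Vstm4 site was called in 19 KO livers at 2.85 to 18.95 and in 5 Pio-treated WT livers at 4.58 to 11.8.

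The first comparison asked which sites had a peak more often with Pio, in livers of each genotype. The numbers of livers called were compared with an exact permutation test within diets (two-sided, 10 livers against 10) and Benjamini-Hochberg adjustment over all sites tested, which were those called in at least 3 livers of the genotype. In WT livers 53 of 145 sites tested (36 of 95 in 5′ UTRs, 17 of 50 upstream) rose with Pio and 0 fell, at an adjusted p below 0.05. Over all 6487 sites tested, 41.6% rose and 0% fell, so the share of members (36.6%) was close to the background. All 53 were called in 0 of 10 untreated WT livers and in 6 to 10 Pio-treated ones, so they entered the test only through the livers where they were called. With sites called in at least 1 library kept, 7 of 236 members tested passed. In KO livers 0 of 994 sites passed in either direction (background 0% of 31636), and 14 had an unadjusted p below 0.05. Without the 6 short-fragment libraries 8 of 20 sites tested passed, a count that depends on the same filter, and 51 of the 53 had a peak in at least 1 of the other 4 Pio-treated libraries. With all peak lists shortened to equal length 3 sites rose.

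The smallest adjusted p with Pio in WT livers, 0.00128 by the exact permutation test with Benjamini-Hochberg adjustment, was that of Tmprss5 and Fth1, each called in 10 of 10 Pio-treated and 0 of 10 untreated livers. Eif1, Sat1, Vamp8, Yipf4 and Dynlrb2 followed with 9 of 10 against 0 of 10 (adjusted p = 0.00269, same exact test). Sat1 encodes the enzyme that acetylates spermidine and spermine. Its site, 140 bp from the start at chrX:155216151-155216299, had a fold enrichment of 13.2, 8.64, 19.98, 4.98 and 14.9 in WT Pio and 9.13, 4.99, 10.48 and 2.99 in WT HFD-Pio. No KO liver had a peak there. Vamp8, a vesicle fusion protein, had 7.08, 8.46, 8.74 and 8.45 in WT Pio, 22.5, 3.10, 4.99, 14.3 and 8.24 in WT HFD-Pio, and a single KO Pio liver at 3.75. At Sat1 the 3 libraries with longer fragments and a peak had 13.2, 4.98 and 4.99, inside the range of the others.

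The 17 upstream sites that rose with Pio in WT livers were mostly those with a transcript match (13 of 17). At Dynlrb2 (chr8:116502198-116502403, 2618 bp upstream) fold enrichment was 7.08, 7.48, 15.5, 4.34 and 5.88 in WT Pio and 10.3, 4.22, 12.4 and 4.58 in WT HFD-Pio, with 0 of 20 KO livers called. At Yipf4 it was 5.49, 10.45, 26.9 and 9.26 in WT Pio, 16.7, 6.65, 3.45, 10.9 and 5.43 in WT HFD-Pio, and 2.77 to 4.76 in 8 KO livers. All 24 matched sites were called in at least 3 Pio-treated WT livers, where 35 upstream sites were in all. They were called in 0 untreated WT livers, and 16 of the 24 in 0 KO livers.

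**Figure D4:**
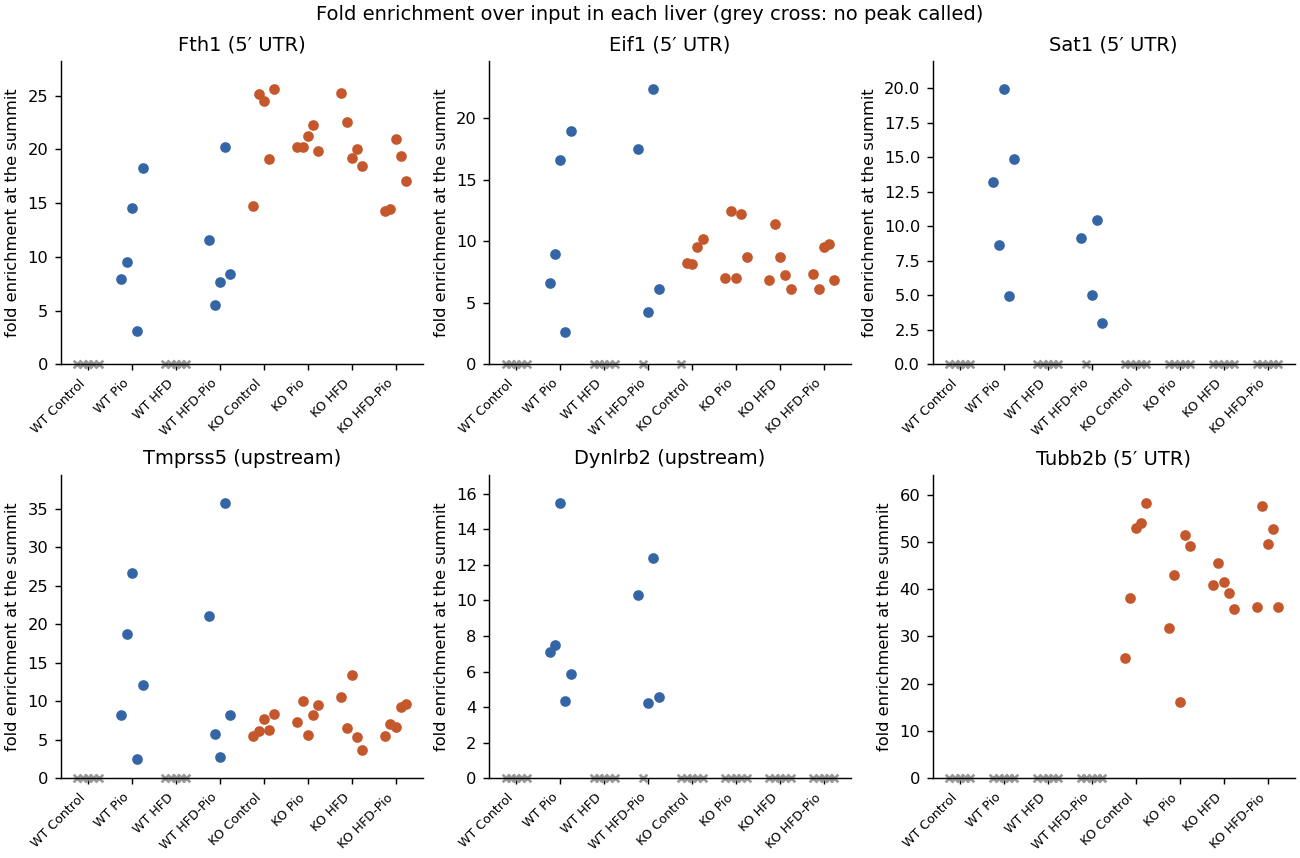
Fold enrichment over input at the summit in each liver at 6 sites, by group (WT blue, KO orange). Grey crosses on the axis mark livers with no peak, which have no value. No untreated WT liver had a peak at any of the 6, Sat1 and Dynlrb2 had peaks in Pio-treated WT livers only, and Tubb2b in KO livers only.

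Of the 53 sites, 20 were called in 0 KO livers and 25 in at least 3. Among the ribosomal protein genes 4 of 9 sites tested rose (Rplp0, Rplp1, Rpl12 and Fau), near the 41.6% of all sites. Ndufv1 and Ndufv2, subunits of respiratory complex I, rose as the only sites tested of the oxidative phosphorylation list, with 7 of 10 Pio-treated livers called at each. Of the 2 smooth muscle sites tested, Actg2 (smooth muscle γ-actin) rose, with 7 of 10 Pio-treated livers called. Over sites of any class, 3 to 32 of the 58 of the smooth muscle list and 2 to 33 of the 37 of an intestinal list were called per Pio-treated WT liver, against 0 and 0 to 1 per untreated WT liver. Per KO liver 19 to 33 and 0 to 2 were called. Of all 36132 sites, 649 to 7345 were called per Pio-treated WT liver and 81 to 497 per untreated one. The ribosomal protein list moved as well, with 19 to 156 of its 192 sites against 0 to 1. The part of these lists in the Pio result was not tested.

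Sites were also counted with no test. By the count of livers, a gained site had a peak in 3 or more of the 5 livers of the group named first and in 0 of the 5 of the other, and a lost site the reverse. WT Pio against WT Control gained 83 of 84 sites (96.4% of all 4005) and lost 0 (0.549%). WT HFD-Pio against WT HFD gained 38 of 39 (97.1% of 2232) and lost 0 (0.403%). The outcome in WT livers followed from the rule, since 0 members were called in 3 or more WT Control livers and 1 in 3 or more WT HFD livers. KO Pio against KO Control gained 63 of 458 (8.04% of 14586) and lost 9 (1.71%). KO HFD-Pio against KO HFD gained 15 of 411 (3.8% of 13615) and lost 13 (2.78%). Apart from KO Pio, where members were gained in 13.8%, the shares in KO were close to those of all sites. The sites gained in all 5 KO Pio livers were Gspt1 (translation termination), Zcchc18 and Lrfn5, and the site lost by the most livers was that upstream of Rhog, with 4 KO Control livers at 5.11, 8.29, 5.23 and 3.78.

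The second comparison asked the same of HFD. In WT livers 0 of 145 sites passed the exact permutation test (background 0% of 6487) with 3 at an unadjusted p below 0.05, and in KO livers 0 of 994 passed (background 0% of 31636) with 8. Gained or lost were 0 of 1 site in WT HFD against WT Control (24.8% of 109), 5 of 91 in WT HFD-Pio against WT Pio (3.16% of 4145), 31 of 376 in KO HFD against KO Control (6.17% of 12372) and 44 of 483 in KO HFD-Pio against KO Pio (7.43% of 15469). The 5 in WT were all lost, with Ttll3 and Rpl5 called in 4 WT Pio livers each. At Gnb2, a G protein subunit, all 5 KO Pio livers had a peak (3.36, 4.37, 3.61, 6.89 and 6.01) and 0 KO HFD-Pio livers did.

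Where every KO liver had a peak, strength could be compared. The log2 of the fold enrichment, minus the median of the liver, was fitted with limma over the 20 KO livers at the 1980 sites called in all of them, 55 of which were members. No member passed an adjusted p of 0.05 with a 2-fold change in any of the 4 contrasts of Pio or HFD (background 0% of 1980). Unadjusted p-values were below 0.05 at 3 to 6 of the 55 members per contrast. The members' log2 differences ran from -0.55 to 0.66 with a median SE of 0.21.

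The third comparison set all KO livers against all WT livers, with peaks of both genotypes held to a q of 0.05 and the exact permutation test within treatments. Of 1077 members tested 506 were called in more KO livers and 16 in more WT livers, against a background of 47.1% and 2.5% of 35173 sites. Members needed a call in at least 3 libraries, and 870 of the 1106 had none in any WT liver. These 870 entered the comparison only through the KO livers where they were called. With sites called in at least 1 library kept, 366 of 1105 members tested were higher in KO and 6 lower. Of the 5′ UTR sites 492 of 1000 were higher and 10 lower in KO, and of the upstream sites 14 of 77 were higher and 6 lower. The share higher in KO was 49.2% for 5′ UTR sites, 50.05% for coding exons and 57.0% for 3′ UTRs, and it was 18.2% for upstream sites and 26.2% for other intergenic sites. Within the Control groups alone 89 of 265 members were higher in KO and 0 lower. This followed from the filter. In WT Control 0 members were called in 3 or more livers, and in KO Control 265 were, 89 of them in all 5. With all lists shortened to equal length 33 were higher and 3 lower. The KO share of members was close to the background.

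The 8 sites with the smallest p, each called in 20 of 20 KO and 0 of 20 WT livers (adjusted p = 1.42e-08, exact permutation test with Benjamini-Hochberg adjustment), were 5′ UTR sites of Tubb2b, Ptn, Marcksl1, Basp1, Marcks, Gpm6a, Dpysl3 and Ywhag. Tubb2b, Basp1, Gpm6a and Dpysl3 are best known from nerve cells, and Ywhag is a 14-3-3 protein. Tubb2b, a β-tubulin, had the highest fold enrichment, at chr13:34130091-34130376. It was 25.5, 38.2, 52.9, 54.0 and 58.3 in KO Control, 31.8, 43.1, 16.1, 51.4 and 49.2 in KO Pio, 40.8, 45.5, 41.6, 39.2 and 35.7 in KO HFD and 36.2, 57.6, 49.6, 52.8 and 36.2 in KO HFD-Pio. The 4 KO groups overlapped, and no WT liver had a peak. Marcksl1, a membrane and actin binding protein, had 11.8, 17.2, 27.3, 12.0 and 22.7 in KO Control and 7.91 to 27.2 in the treated KO livers. Tubb5, a tubulin of dividing and other cells, was called in 20 KO livers at 20.4 to 44.0 and in 2 WT livers at 3.72 and 4.26.

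The neural list held 21 sites in 16 of its 45 genes, among them Mapt and Map2 (microtubule-associated proteins), Nrgn (neurogranin) and Snap25 (a synaptic fusion protein). Of the 21, 13 were higher in KO and 0 lower, and 20 were called in 0 WT livers. Of all sites 47.1% were higher and 2.5% lower, and 870 of the 1106 members (78.7%) were called in 0 WT livers. Each KO liver had 4 to 14 of the 21 and each WT liver 0 to 1. At Mapt, 19 KO livers had a peak, at 7.57, 7.70, 8.50 and 8.06 in KO Control and 5.81 to 16.5 in the treated KO livers. This list was known to move with KO from earlier results of these data. The part of neural tissue in these samples was not tested.

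The 16 sites lower in KO included 10 in 5′ UTRs, those of Sat1, Clic1, Vamp8, Rplp0, Fau, Pdcd10, Foxp1, Spcs2, C330021F23Rik and Rab25, and 6 upstream, those of Dynlrb2, Dcaf5, Hrh2, Zfp598, Esp15 and Farsa. This Farsa site is a further one, 2817 bp upstream and matched to Atp5g2, with a peak in 6 WT and 0 KO livers. The Farsa site printed above, 1367 bp upstream, had a peak in 6 WT and 18 KO livers. All 16 were among the 53 sites that rose with Pio in WT livers, and 0 of 10 untreated WT livers had a peak at them. They thus entered this comparison mainly through the Pio-treated WT livers where they were called. Sat1 had a peak in 8 WT livers, all Pio-treated, and 0 KO livers at the common q (adjusted p = 0.00251, exact permutation test). Dynlrb2 had one in 9 WT livers, all Pio-treated, and 0 KO livers (adjusted p = 0.000839, same test). Clic1, a chloride channel protein, had 7.84, 11.3, 12.3 and 16.9 in WT Pio and 10.52, 12.5 and 6.30 in WT HFD-Pio. The strongest peaks of these sites varied in length, with 149 bp at Sat1, 84 bp at Clic1, 206 bp at Dynlrb2 and 456 bp at the Farsa site matched to Atp5g2. Tubb2b had 286 bp.

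Genes with a 5′ UTR or upstream site were 935 of 21911 protein-coding genes (4.27%). They included 11 of 54 splicing factors and hnRNPs, 12 of 68 translation factors, 11 of 85 cytosolic ribosomal proteins, 6 of 50 proteasome subunits, 7 of 86 genes of oxidative phosphorylation, 3 of 23 tubulins and actins and 2 of 17 smooth muscle genes. Among the 13 splicing sites 10 were higher in KO, as were 12 of the 21 translation factor sites and 7 of the 9 oxidative phosphorylation sites, and none of these was lower. Over all sites tested 47.1% were higher, and these lists were not tested against that share. The 12 ribosomal protein sites differed among themselves. Those higher in KO included Rplp1, Rps15 and Rps20, and Rplp0 and Fau were lower, and 7 of the 12 were called in 0 KO livers. Of 3 heat shock sites (3 of 81 genes) 1 was higher in KO, of 7 proteasome sites 0, and Atf4 was the single site of 30 immediate early and stress genes.

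For genes of the pathways that RXR is known for, the counts stand beside the 4.27% of all protein-coding genes, at which lists of this size would hold few. None was found among 7 PPARγ exemplar genes of the study, 40 genes of fatty acid oxidation and PPARα targets, 18 LXR and FXR targets, 11 retinoic acid targets, 39 secreted liver proteins, 33 hepatocyte enzymes and transporters or 25 intestinal genes. Of 19 genes for RXR and its partner receptors only Thra (1 gene, 5.26%), the thyroid hormone receptor α, had one. Its most frequent site at chr11:98753192-98753726 lay 11187 bp from the transcript start, with fold enrichment of 10.4, 17.4, 10.6, 10.04 and 11.05 in KO Control, 12.2, 12.2, 8.26, 12.8 and 14.7 in KO Pio, 12.4, 10.47, 16.9, 9.24 and 8.31 in KO HFD and 11.001, 10.9, 11.1, 12.3 and 10.9 in KO HFD-Pio. No WT liver had a peak there, and the KO groups overlapped. Of 31 genes of cholesterol and fatty acid synthesis Scd2 and Sqle (2 genes, 6.45%) had a site. Sqle (squalene epoxidase) was called in 2 KO Control livers at 4.61 and 5.47, in 5 KO Pio livers at 5.05, 4.37, 8.26, 5.96 and 4.76, in 1 KO HFD liver at 4.49 and in 4 KO HFD-Pio livers at 5.60, 3.81, 4.72 and 5.25. Its exact permutation p for Pio was 0.0205 before adjustment and 1 after Benjamini-Hochberg adjustment.

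**Figure D5:**
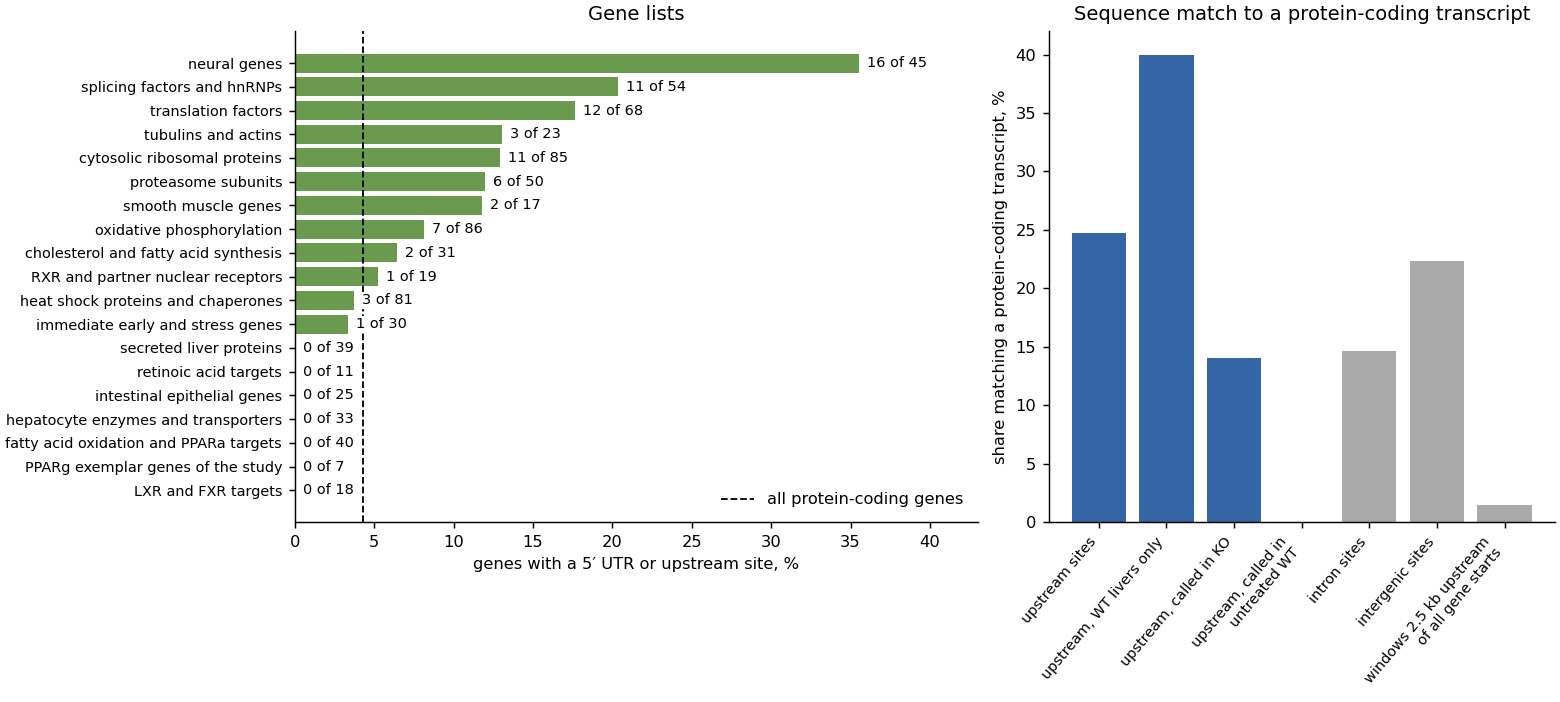
Left, the percentage of the genes of each list with a 5′ UTR or upstream site, with the counts beside the bars and the percentage of all protein-coding genes (4.27%) as a dashed line. Right, the percentage of sites with a sequence match to a protein-coding transcript, where the windows of 201 bp are longer than most matched peaks. The neural list is highest at 35.6%, and 16 of the 40 upstream sites called in WT livers only had a match against 8 of the 57 called in KO livers.

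At least 1 untreated WT liver had a peak at 17 of the 97 upstream sites. Of the 17 sites, 0 had a transcript match, 16 were called in 0 KO livers, and in 11 (64.7%) more than 50% of the bases around the summit were masked as repeats. That share was 63.3% at the 831 sites called in untreated WT livers that were not members, so it was not particular to upstream sites. WT Control replicate 2 alone had a peak at 16 of the 17, and without that library 86 upstream sites were left. Those of Gm4981, AW822073 and Duxf3 lay within 12 kb of each other on chromosome 10. The site of Gm4981 at chr10:58237576-58237867 was called in the most WT livers, with 4.33 and 4.44 in WT Control, 4.84 in WT Pio, 3.55, 3.35, 4.19 and 3.63 in 4 WT HFD livers and 2.97 in a single WT HFD-Pio liver. It was called in 6 untreated and 2 Pio-treated livers (adjusted p = 0.237, exact permutation test with Benjamini-Hochberg adjustment).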

How the data were processed

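RXR ChIP-Seq peak lists of 40 livers were used. The 40 input samples had no file of their own here. The submitters' processing notes and the study's methods name Novoalign, mm10 and MACS2 2.1.1.20160309, run on every ChIP library with its matched input, with 1 tag kept per position in the file headers. The deposited files hold, as the authors' MACS2 output, the pileup at the summit (signal in tags), the −log10 p and −log10 q values, the fold enrichment (a ratio to local background) and a display score. They hold no reads per site, so no count test or counting interval was possible.

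Peaks on chromosomes 1 to 19, X and Y were merged into sites, and a site was called in a liver with a peak in it. Summits were placed on GENCODE M21, with a gene body of any gene type excluding a site from the upstream class. The members and the gene lists were chosen with earlier results of these data known. Calls were compared with exact two-sided permutation tests stratified by diet, by Pio or by treatment, and strength in KO livers with limma 3.58.1 (R 4.3.3). All were fitted on all sites and adjusted by Benjamini-Hochberg. A rule named the sites called most often, strongest or with the smallest p of each class, test and list. Sites named for a repeat, a transcript match or a gain in every liver, and the whole list lower in KO, were chosen after their values were seen. Repeats and motifs were searched within 100 bp of the summit, and transcripts were aligned with blastn 2.17.0. Scripts ran in Python 3.11.15 with scipy 1.17.1, pandas 2.3.3, numpy 2.4.6 and matplotlib 3.10.9, and the tests were tested on simulated data. Stricter peaks, lists of equal length, another overlap, other site filters, a replicate block and leaving out libraries were tried. The result for 1 site is not reported here.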

Additional observations from a re-analysis of the deposited data

Results flagged for a closer look

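In 5 of the 91 groups tested, the fold enrichment of 1 liver stood apart from the other livers of its group by Dixon's test, where chance gives about 1 in 20 groups. Above the others were KO HFD replicate 2 at Rasl2-9 with 6.67 (others 3.64 to 3.78), KO Control replicate 5 at Tecr with 10.9 (others 6.07 to 6.84) and WT Pio replicate 3 at Farsa with 10.02 (others 6.53 to 7.05). Below the others was KO HFD replicate 5, at Rplp1 with 7.04 (others 15.7 to 18.7) and at the Fth1 site 105 bp from the start with 10.2 (others 20.6 to 23.4).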

How the results depend on the processing

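The number of sites higher with Pio in WT livers, 53, became 21 with peaks held to a -log10 q of at least 5, 26 at a fold enrichment of at least 5, 3 with lists of equal length, 7 with sites called in at least 1 library and 8 without the short-fragment libraries. It was 53 to 84 with each liver left out, highest without WT Pio replicate 4. Sites higher in KO, 506, became 190, 222 and 33 under the first 3 settings and 366 with sites called in at least 1 library. They were 89 within the Control groups only (chosen after seeing the data) and 506 to 578 with a liver left out. The 89 followed from the filter, as given above. Sites lower in KO, 16, became 6 at the stricter q, 3 with lists of equal length and 6 with sites called in at least 1 library. They were 15 to 32 with a liver left out, highest without WT Pio replicate 4. Within the Control groups they were 0, where 0 members had a peak in 3 or more WT Control livers. The 0 calls for Pio in KO, HFD in WT, HFD in KO and the limma contrasts stayed 0 in every setting run.

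Gained or lost sites are given next at the stricter q, with at least 4 of 5 livers, with lists of equal length and as the range with a liver left out. WT Pio against Control (83 gained) gave 37, 55, 15 and 55 to 84, lowest without WT Pio replicate 3. WT HFD-Pio against HFD (38) gave 13, 13, 6 and 13 to 38, lowest without HFD-Pio replicate 1, and 0 to 1 lost. KO Pio against Control gave 8, 11, 3 and 26 to 80 for the 63 gained, lowest without KO Pio replicate 4, and 3, 1, 5 and 1 to 11 for the 9 lost. KO HFD-Pio against HFD gave 2, 1, 6 and 5 to 24 for the 15 gained, with 9 when a peak had to cover 50% of the site's strongest peak, and 4, 3 and 4 to 24 for the 13 lost. WT HFD-Pio against Pio (5) gave 3, 2, 2 and 3 to 11, KO HFD against Control (31) 9, 4, 12 and 14 to 41, and KO HFD-Pio against Pio (44) 10, 6 and 24 to 60.

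Omission of these livers moved a count by more than 1.5 times. Sites higher with Pio in WT were 84 without WT Pio replicate 4 and 80 without WT HFD-Pio replicate 2, and sites lower in KO were 32 without the former and 25 without WT HFD-Pio replicate 2 or 3. WT HFD-Pio gained 13, 14 and 15 without HFD-Pio replicates 1, 4 and 5, and lost 1 without replicate 3. KO Pio gained 39, 27, 34, 26 and 33 without Pio replicates 1 to 5 and lost 3, 3, 1 and 5 without Control replicates 1, 2, 3 and 5. KO HFD-Pio gained 24 and 23 without HFD replicates 1 and 2 and 7, 7, 7, 7 and 5 without HFD-Pio replicates 1 to 5, and lost 6, 5, 4 and 7 without HFD replicates 1 to 4 and 24 without HFD-Pio replicate 3 or 4. Against Pio, WT HFD-Pio gave 3 without Pio replicate 2 or 5 and 11 and 8 without HFD-Pio replicates 1 and 4, and KO HFD-Pio gave 27, 24 and 29 without Pio replicates 2, 4 and 5. KO HFD against Control gave 14 without HFD replicate 3.

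The 1106 sites became 693 (654 in 5′ UTRs, 39 upstream) when called in at least 5 libraries, 382 (357 and 25) at the stricter q, and 1031 to 1106 with a library left out. Upstream sites were 242 with at least 2 libraries and 23 within 1 kb. The 12 sites with a repeat became 98 with 2 mismatches and 1 with none, and the 0 with spacer 1 became 18 with 2 mismatches. The causes of these changes were not tested, beyond stricter rules leaving fewer peaks.

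Replicate numbers did not pair the livers, since 0 of 40 same-numbered pairs had deviations correlated above 0.1 (-0.502 to 0.0346). With the replicate block, an exact sign test on same-numbered pairs, 0 sites rose with Pio in WT and 7 were lower in KO. For Pio in WT 0 sites of any class rose, and the smallest adjusted p was 0.0537 by this sign test. The number of pairs bounds the p-values of the sign test from below, so this 0 is not a result about the members.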
